A study of Mus musculus with 18 samples.

Results

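Transcripts that mark vascular endothelium were followed through 3 macrophage populations sorted from inflamed mouse lung. The 10 genes were Cdh5, Pecam1, Kdr, Cldn5, Tie1, Tek, Ramp2, Egfl7, Vwf and Emcn, out of 21254 genes in the count table. They were chosen by name as endothelial markers, and they were selected on their levels in these same libraries, since it was known that most of them were highest in transitional interstitial macrophages (tnsIMs). The differences between populations are therefore described without a test, and tests are given for the differences between genotypes and for endothelial genes outside the 10. All 10 genes passed the filter on low counts that left 15811 genes for testing.

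RNA was sequenced from Ly6C+ monocyte-derived macrophages (moMs), from tnsIMs, which carry both Ly6C and MHC-II, and from mature interstitial macrophages (matIMs), which carry MHC-II without Ly6C. Each population came from 3 WT mice, which were B6.Cx3cr1tm1.1(cre)Jung/J mice with the Cre but no floxed Ezr, and from 3 Ezr-KOm mice, which carried Ez fl/fl with the same Cre, so that all 18 libraries came from Cre carriers. The mice were 3 to 5 months old, with 50% of each sex, and every lung was taken 24 h after 12.5 mg of LPS in 5 ml had been nebulized for 15 min, so no untreated library was compared. Cx3cr1 Cre is active in monocytes and macrophages and also, at a lower level, in other myeloid and NK cells. The lungs were dissociated whole and sorted on CD45, CD11b, Ly6C and MHC-II, and no endothelial marker was part of the gates as they were described.

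Endothelial cells line blood and lymph vessels and are held together by adherens and tight junctions, in which VE-cadherin, claudin-5 and PECAM-1 take part. They respond to VEGF through KDR and to angiopoietins through TEK, with TIE1 as a partner receptor, and they store von Willebrand factor for haemostasis. In the lung they form a dense capillary bed around the alveoli, with general capillary cells and with larger aerocytes that face the air spaces. Macrophages are not known to express most of these genes, although PECAM-1 is also carried by monocytes, neutrophils and platelets, and von Willebrand factor by megakaryocytes and platelets.

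Libraries held between 16512783 and 48460995 counts, and 3 counts corresponded to between 0.0599 and 0.190 CPM, the level used here, which is a gene's count over the library total after scaling by the trimmed mean of M values. Ezr, the targeted gene, lay between 497 and 741 CPM in the 9 WT libraries and between 93.8 and 282 CPM in the 9 Ezr-KOm libraries, without overlap. The genes of the gates followed the labels of the populations. Ly6c2 had medians of 478, 236 and 44.4 CPM in moMs, tnsIMs and matIMs, and H2-Aa, an MHC-II chain, had medians of 552, 4591 and 6803 CPM. Ptprc, which encodes CD45, was at 796 CPM or more in every library, and the 11 monocyte and macrophage markers together reached between 28317 and 56512 CPM.

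The 10 endothelial genes lie on 8 chromosomes of GRCm39, as the deposited table gives them. Cdh5 is at chr8:104828257-104871143 (+), Pecam1 at chr11:106545043-106641454 (-), Kdr at chr5:76093487-76139118 (-) and Cldn5, a gene with 1 exon, at chr16:18595597-18597012 (+). Tie1 is at chr4:118328388-118347258 (-), Tek at chr4:94627526-94763213 (+), Ramp2 at chr11:101136854-101150372 (+), Egfl7 at chr2:26470026-26483132 (+), Vwf at chr6:125523737-125663642 (+) and Emcn at chr3:137046828-137137946 (+). In the Gencode M39 annotation Ramp2 overlaps Vps25 by 5846 bases on the same strand, and Egfl7 overlaps Gm20532 on the same strand by 10139 bases and Agpat2 on the opposite strand by 3729 bases. Reads from those stretches can be lost or split when genes are counted, so the levels of Ramp2 and Egfl7 are uncertain in size. The library kit did not mark strand, and Tie1 lies wholly within a long non-coding gene of the opposite strand, so reads from Cdh5, Kdr, Tie1, Vwf and Egfl7 cannot be told apart from reads of the transcripts that overlap them on the opposite strand.

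RefSeq promoter windows of GRCm38.p6 were given for 6 of the 10 genes, and each was matched base for base to GRCm39. The 250 bases before the start are shown for Cldn5, which had the highest level per kilobase of transcript in tnsIMs, and for Kdr, whose tnsIM libraries overlapped those of another population. Capitals mark GGAAG, the core of sites bound by ETS transcription factors, read on either strand. The Cldn5 window is at chr16:18595347-18595596 (+) and the Kdr window at chr5:76139116-76139365 (-).
Cldn5: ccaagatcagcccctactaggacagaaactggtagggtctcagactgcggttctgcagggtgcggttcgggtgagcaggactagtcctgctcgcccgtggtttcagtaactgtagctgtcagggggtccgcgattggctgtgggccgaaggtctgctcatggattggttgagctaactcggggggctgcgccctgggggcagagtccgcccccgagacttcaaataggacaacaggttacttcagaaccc
Kdr: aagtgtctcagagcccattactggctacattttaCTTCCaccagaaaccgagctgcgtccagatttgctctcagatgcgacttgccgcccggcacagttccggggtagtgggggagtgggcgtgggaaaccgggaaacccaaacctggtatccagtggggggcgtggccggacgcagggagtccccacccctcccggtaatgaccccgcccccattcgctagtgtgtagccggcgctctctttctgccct
GGAAG was present in 4 of the 6 windows (Kdr, Tie1, Egfl7 and Emcn) and in 64.1% of 32851 promoter windows of the same length. TATAAA was in 0 of the 6 and in 12.4% of all windows, and AGATAA, which is known from sites of the GATA factors, was in 0 of the 6 and in 9.99% of all windows. All motifs were read on both strands, and since only GGAAG was found in the 6 windows, no 2 motifs overlapped there.

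All 10 endothelial genes had their highest mean in tnsIMs in both genotypes, as did 21.5% of all tested genes. For 9 of them each of the 6 tnsIM libraries was above each of the 12 moM and matIM libraries, which held for 4.86% of all tested genes. These counts describe the choice of the genes and are no test of it. Over both genotypes, the mean in tnsIMs was between 2.51 times (Kdr) and 4.80 times (Egfl7) that in moMs, with a median of 3.53, and between 1.73 times (Kdr) and 13.5 times (Emcn) that in matIMs, with a median of 9.998. In bulk RNA, more cells of a type and more RNA per cell cannot be told apart.

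**Figure D1:**
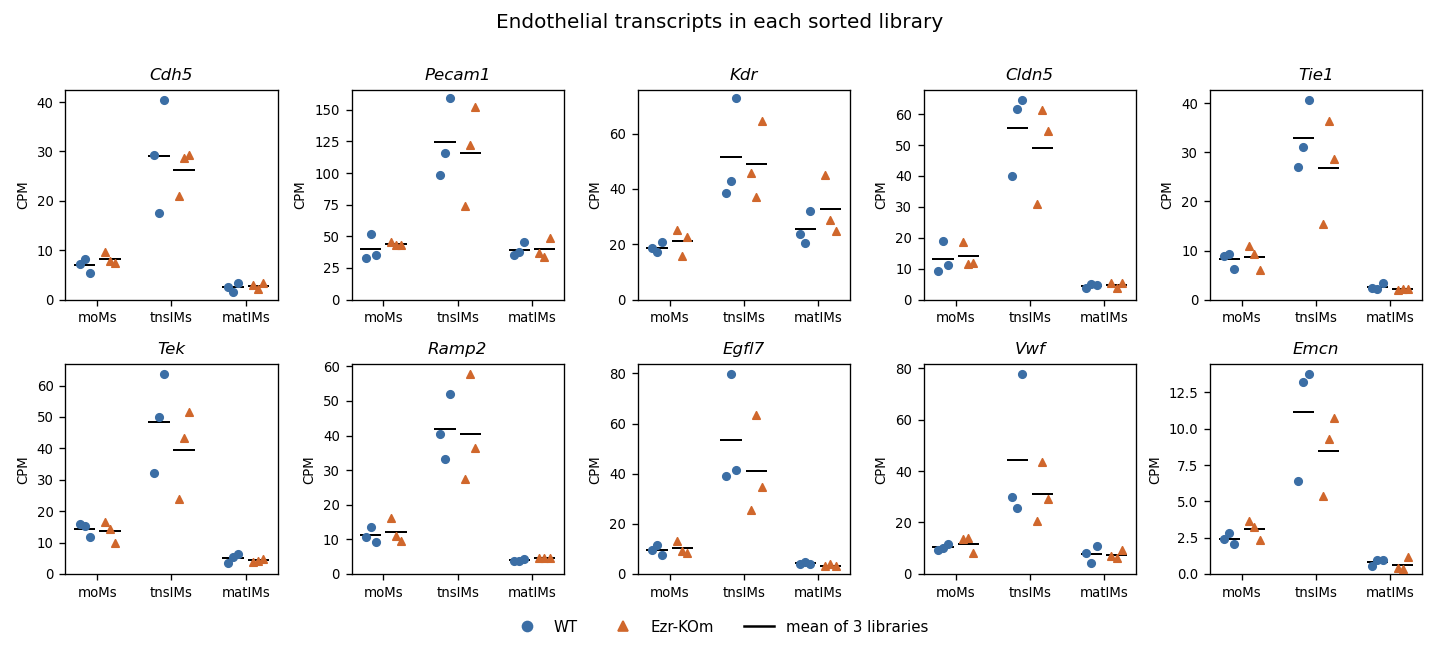
Level in CPM of each of the 10 endothelial transcripts in 18 libraries, by sorted population (x axis), with circles for WT, triangles for Ezr-KOm and black lines for the mean of 3 libraries; each panel has its own linear axis from 0. The tnsIM libraries are above the others in every panel but Kdr, where a matIM library at 45.1 CPM lies among them.

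Among the genes of cell junctions, Cdh5 encodes VE-cadherin, the adhesion molecule of endothelial adherens junctions. In WT tnsIMs it was at 29.4, 17.6 and 40.5 CPM in replicates 1 to 3, and in Ezr-KOm tnsIMs at 21.0, 28.7 and 29.3 CPM. In moMs it had a lowest value of 5.43, a median of 7.61 and a highest value of 9.57 CPM, and in matIMs 1.62, 2.74 and 3.43 CPM. The 3 populations did not overlap, and the genotypes overlapped in each. Cldn5 encodes claudin-5, the main tight junction protein of endothelium. It was at 40.1, 61.5 and 64.7 CPM in WT tnsIMs and at 31.0, 61.4 and 54.5 CPM in Ezr-KOm tnsIMs. In moMs it ran from 9.34 over a median of 11.7 to 18.9 CPM, and in matIMs from 3.68 over 4.83 to 5.38 CPM. Here too each population occupied its own range.

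Pecam1 encodes PECAM-1 (CD31), an adhesion molecule of endothelium that leukocytes and platelets also carry, and it was the most abundant of the 10 genes in CPM. It was at 98.4, 116 and 159 CPM in WT tnsIMs and at 73.7, 122 and 152 CPM in Ezr-KOm tnsIMs. It differed from Cdh5 and Cldn5 outside tnsIMs, because its range in moMs (33.1 to 51.8 CPM, median 42.9) overlapped its range in matIMs (33.9 to 48.8 CPM, median 37.0). The mean in moMs was 1.06 times that in matIMs, against 2.85 times for Cdh5 and 2.94 times for Cldn5.

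Of the receptor tyrosine kinases, Kdr encodes VEGF receptor 2 and departed most from the common order. It was at 38.4, 43.0 and 72.8 CPM in WT tnsIMs and at 45.6, 37.2 and 64.6 CPM in Ezr-KOm tnsIMs. In matIMs Kdr was at 23.9, 20.3 and 32.2 CPM in WT and at 45.1, 28.6 and 24.8 CPM in Ezr-KOm mice. The Ezr-KOm matIM library of replicate 1 was thus above 3 of the 6 tnsIM libraries. In moMs Kdr lay between 15.7 and 25.1 CPM, so it was the only one of the 10 with a higher mean in matIMs than in moMs, with overlapping ranges, the moM mean being 0.686 times the matIM mean.

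Tie1 and Tek encode the receptors of the angiopoietin pathway. Tie1 was at 27.1, 31.1 and 40.8 CPM in WT tnsIMs and at 15.5, 36.3 and 28.7 CPM in Ezr-KOm tnsIMs, against 5.95 to 10.96 CPM in moMs and 1.97 to 3.39 CPM in matIMs. Tek was at 32.0, 49.8 and 63.7 CPM in WT tnsIMs and at 23.9, 43.4 and 51.7 CPM in Ezr-KOm tnsIMs, against 9.92 to 16.6 CPM in moMs and 3.59 to 6.37 CPM in matIMs. For both receptors the populations stood in the order tnsIMs, moMs, matIMs with no overlap, and the mean in tnsIMs was 12.5 times (Tie1) and 9.42 times (Tek) that in matIMs.

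Ramp2 encodes a partner of the calcitonin receptor-like receptor, with which it forms the adrenomedullin receptor. It was at 40.4, 33.2 and 52.1 CPM in WT tnsIMs and at 27.3, 57.8 and 36.5 CPM in Ezr-KOm tnsIMs, and it is the only one of the 10 whose highest tnsIM value was in Ezr-KOm replicate 2. In moMs it lay between 9.17 and 16.2 CPM and in matIMs between 3.72 and 4.70 CPM. In matIMs its 3 WT values (3.72 to 4.43 CPM) were all under the 3 Ezr-KOm values (4.54 to 4.70 CPM). The edgeR quasi-likelihood test did not call that difference (log2 fold change 0.21 ± 0.27 SE, adjusted p = 0.9999).

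Egfl7 encodes a secreted factor of the vessel wall, Vwf the von Willebrand factor and Emcn endomucin, a sialomucin of the capillary and venous surface. Egfl7 was at 39.0, 79.7 and 41.7 CPM in WT tnsIMs and at 25.7, 63.5 and 34.5 CPM in Ezr-KOm tnsIMs, so that replicate 2 was highest in both genotypes. It lay between 7.52 and 13.3 CPM in moMs and between 2.98 and 4.70 CPM in matIMs. Vwf was at 29.7, 25.5 and 77.7 CPM in WT tnsIMs and at 20.6, 43.6 and 29.2 CPM in Ezr-KOm tnsIMs, and its highest tnsIM value was 3.78 times its lowest, the widest span of the 10. Its ranges in moMs (7.98 to 13.96 CPM) and matIMs (4.31 to 10.8 CPM) overlapped. Emcn was the least abundant, at 6.42, 13.2 and 13.8 CPM in WT tnsIMs and at 5.36, 9.32 and 10.7 CPM in Ezr-KOm tnsIMs, with 2.09 to 3.65 CPM in moMs. In matIMs it fell to between 0.310 and 1.17 CPM, and its lowest library held 9 counts.

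The order tnsIMs, moMs, matIMs held for the means of 9 of the 10 genes. For Cdh5, Cldn5, Tie1, Tek, Ramp2, Egfl7 and Emcn no library of one population reached into the next. The share of all tested genes with either pattern was not determined. Every tnsIM library lay above every other library for 4.86% of all tested genes. The order describes genes that were chosen with their levels known. For Pecam1 and Vwf the ranges of moMs and matIMs overlapped. For Kdr the ranges of moMs and matIMs overlapped, and tnsIMs and matIMs overlapped only through the Ezr-KOm matIM library of replicate 1. Per kilobase of the Ensembl canonical transcript the highest mean level in tnsIMs was that of Cldn5 (36.9 CPM per kilobase), followed by Pecam1 (32.7), Egfl7 (32.4) and Ramp2 (19.8), and the lowest were those of Vwf (4.27) and Emcn (3.74). With the summed length of all annotated exons instead, Cldn5 stayed highest at 36.9 and Emcn lowest at 1.48 CPM per kilobase, while Egfl7 came to 5.91, so its place in the order depends on the gene model.

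The tnsIM libraries differed among themselves in a way that most of the genes shared. Over the 6 libraries the highest value was between 1.96 times (Kdr) and 3.78 times (Vwf) the lowest. WT replicate 3 held the highest value for 8 of the 10 genes, Egfl7 and Ramp2 excepted, and Ezr-KOm replicate 1 the lowest for 8, Cdh5 and Kdr excepted. Cdh5 was lowest in WT replicate 2 and Kdr in Ezr-KOm replicate 2. Summed over the 10 genes, tnsIM libraries held 381, 470.4 and 627 CPM in WT and 289, 503 and 492 CPM in Ezr-KOm mice. The moM libraries held 125, 158 and 121 CPM in WT and 173, 139 and 129 CPM in Ezr-KOm mice, and the matIM libraries 87.5, 85.6 and 116 CPM in WT and 111, 89.5 and 107 CPM in Ezr-KOm mice. The 3 populations did not overlap in this sum. It rested on between 1974 and 25215 counts per library, and it made up at most 0.0664% of the counts of any library.

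In the make-up of the endothelial counts, Pecam1 and Kdr took more in matIMs than in the other populations. Pecam1 took 29.8% ± 2.99 of the moM counts (SD, n = 6 libraries), 26.1% ± 2.44 of the tnsIM counts and 40.0% ± 4.47 of the matIM counts, and Kdr took 14.4% ± 2.87, 11.2% ± 2.99 and 29.1% ± 6.49. Cldn5 took 9.51% ± 1.63, 11.3% ± 1.09 and 4.68% ± 0.693. Shares were also taken among the 8 genes other than Pecam1 and Kdr. Ramp2 then took 14.7% ± 0.802 (moMs), 14.4% ± 2.44 (tnsIMs) and 14.1% ± 1.90 (matIMs), and Cdh5 9.69% ± 1.08, 9.88% ± 2.52 and 8.61% ± 1.55. The ranges of both genes overlapped between the populations. Tie1, in contrast, took 7.80% ± 0.942 in matIMs (6.61 to 8.91), under every moM library (9.39 to 12.2) and every tnsIM library (9.10 to 11.1). Vwf took 14.1% ± 2.73, 12.6% ± 3.85 and 24.3% ± 5.02, with ranges that overlapped, and Emcn 3.47% ± 0.333, 3.35% ± 0.643 and 2.33% ± 1.02. Single libraries also stood out. Egfl7 made up 16.9% of the member counts in WT tnsIM replicate 2 (1257 of 7418 counts, exact 95% interval 16.1 to 17.8), and Vwf 12.4% in WT tnsIM replicate 3 (1984 of 15998, 11.9 to 12.9), where the intervals cover counting error only.

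**Figure D2:**
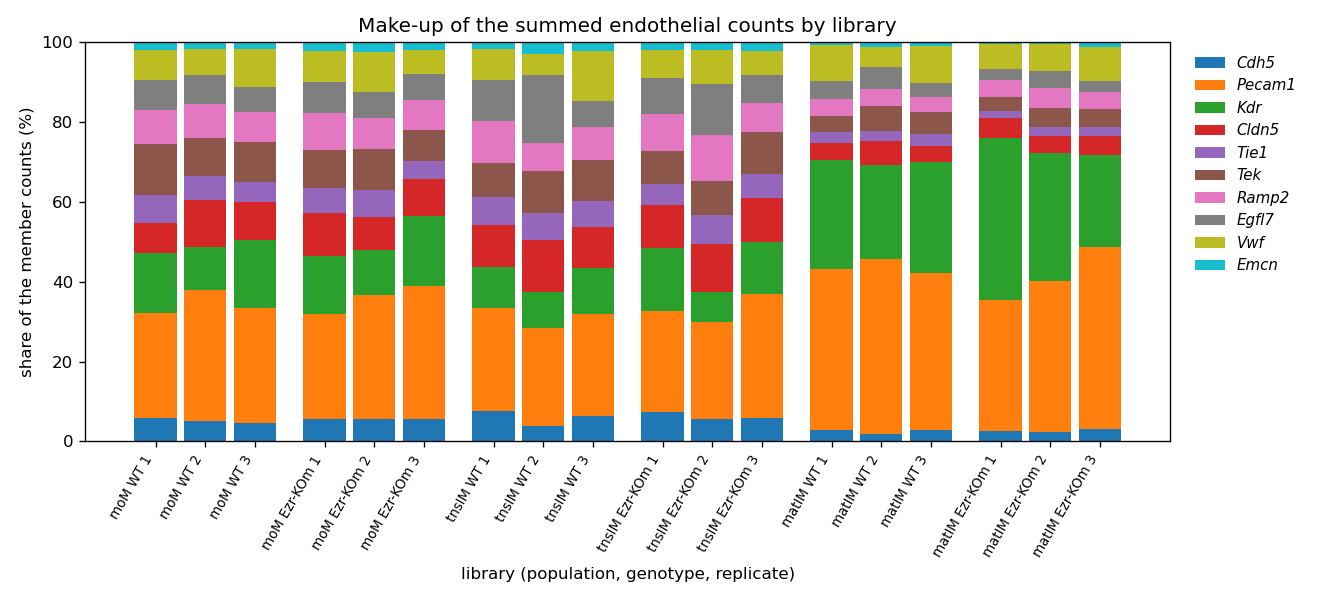
Share of each of the 10 genes in the summed endothelial counts (y axis, %) for 18 libraries (x axis), as stacked bars that reach 100%. Pecam1 and Kdr take a larger part in matIMs, on average 40.0% and 29.1%, than in tnsIMs, on average 26.1% and 11.2%.

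Whether loss of ezrin in the myeloid lineage changed these transcripts was tested within each population. In tnsIMs all 10 log2 fold changes of Ezr-KOm over WT were negative, from -0.046 to -0.51, with a median of -0.23 against 0.00 over all tested genes, and 0 of the 10 passed an adjusted p of 0.05 in edgeR. At an unadjusted p under 0.05 there were also 0, the smallest p being 0.193 for Vwf, and DESeq2 gave 0 at both thresholds. Over all tested genes 0.164% passed in tnsIMs. By the criterion of the study (unadjusted p under 0.05 and a log2 change beyond 0.75), which 1.83% of all genes met in tnsIMs, 0 of the 10 passed.

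The estimates in tnsIMs were -0.51 ± 0.38 for Vwf (log2 fold change ± SE, 3 against 3 mice), -0.39 ± 0.37 for Emcn, -0.37 ± 0.30 for Egfl7, -0.29 ± 0.27 for Tie1 and -0.29 ± 0.28 for Tek, and edgeR gave all of them an adjusted p of 1. Those of Cldn5 (-0.18 ± 0.28), Cdh5 (-0.15 ± 0.27), Pecam1 (-0.10 ± 0.24), Kdr (-0.068 ± 0.27) and Ramp2 (-0.046 ± 0.25) were smaller than their standard errors. The replicate numbers were taken to pair WT and Ezr-KOm libraries because of their correlations. No label states this pairing, and the main fit did not use it. Cldn5, Tek, Egfl7 and Emcn were lower in Ezr-KOm tnsIMs in all 3 pairs, and the other 6 genes were not. The Cldn5 values of replicate 2 were 61.5 and 61.4 CPM. The share of all tested genes that were lower in all 3 pairs was not determined. Most of the 10 genes rose and fell together between tnsIM libraries, so these genes are not independent observations. With the replicate number as a block all 10 estimates were negative too, from -0.068 (Ramp2) to -0.41 (Vwf), and 0 passed. Leaving out 1 library, which breaks a pair, turned the sign of several. Without Ezr-KOm replicate 1 Pecam1, Cldn5 and Ramp2 came to 0.13, 0.057 and 0.17, and without WT replicate 3, the library highest for 8 genes, Cdh5, Pecam1, Kdr, Ramp2 and Vwf turned positive, while Tie1, Tek and Emcn were negative without any 1 library.

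In moMs the changes ran from -0.081 (Tek) to 0.33 (Emcn), with 9 positive, and in matIMs from -0.39 (Emcn) to 0.37 (Kdr), with 5 positive. In both populations 0 of the 10 genes were called by edgeR at an adjusted p of 0.05, 0 at an unadjusted p under 0.05 and 0 by the criterion of the study, and DESeq2 also called 0. Over all tested genes the adjusted threshold was passed by 0.171% in moMs and 0.152% in matIMs, and the criterion of the study by 2.51% and 2.4%. The genotype effect was then compared between populations. The interaction of tnsIMs with moMs was negative for all 10 genes, from -0.18 to -0.72, and that of tnsIMs with matIMs for 9 of 10, from -0.45 to 0.035, and in edgeR 0 of 10 passed in either, as did 0% of all genes tested. At an unadjusted p under 0.05 there were 0 members in either interaction, against 233 and 183 genes in all, and DESeq2 also called 0 genes at the adjusted threshold. The 2 interactions share the tnsIM libraries and are not independent of each other. The p-values rest on 3 mice per group and on an estimate of the spread that all 6 groups share. The main fit did not allow for libraries of different populations that may come from the same mouse.

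**Figure D3:**
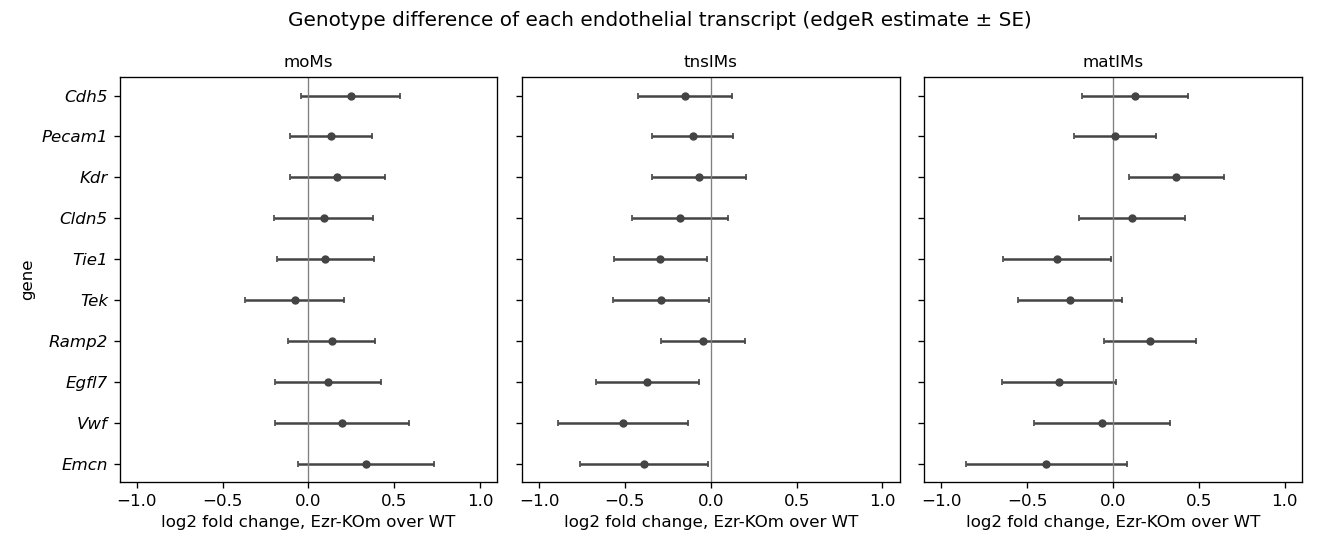
Log2 fold change of Ezr-KOm over WT (x axis) for each of the 10 genes (y axis) in moMs, tnsIMs and matIMs. Points are edgeR estimates, bars are 1 standard error derived from the test statistic, and a grey line marks 0. In tnsIMs all points lie left of 0, down to -0.51, and 0 of the 30 differences passed the adjusted threshold.

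Endothelial genes outside the 10 were tested between populations in the same fit. They were 48 genes in 6 lists, all of which passed the filter, and the lists were drawn up with earlier results of these libraries known. They mark the same cell type as the 10. The calls therefore describe the lists and are no independent test of the pattern of the 10. In WT mice 41 of the 48 were higher in tnsIMs than in moMs and 2 were lower at an adjusted p of 0.05 in edgeR, against 13% of all tested genes higher and 8.61% lower. Compared with matIMs, 44 were higher and 0 lower in WT tnsIMs, against 10.2% and 8.32% of all genes. In Ezr-KOm mice 36 were higher and 2 lower than in moMs (9.23% and 5.04% of all genes), and 43 were higher and 1 lower than in matIMs (9.85% and 8.37%). The median log2 fold change over the 48 was 1.79 against WT moMs and 3.24 against WT matIMs, beside medians over all genes of 0.01 and -0.04. The comparisons with moMs and with matIMs share the tnsIM libraries.

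Of the 22 other pan-endothelial genes, 20 were higher in WT tnsIMs than in moMs and 20 than in matIMs. The most abundant were Tspan7, a tetraspanin, at 99.4 to 223 CPM in tnsIMs, against 36.7 to 57.2 in moMs and 12.7 to 17.2 in matIMs, and Cav1, the main protein of caveolae, at 74.5 to 162 CPM, against 37.4 to 61.6 and 19.998 to 33.8. Acvrl1, an activin receptor-like kinase of the BMP pathway, ranged from 83.4 to 125 CPM in tnsIMs and was higher than in moMs (log2 fold change 0.59 ± 0.17 SE, edgeR adjusted p = 0.0209), while its change against matIMs, 0.39 ± 0.17, did not pass (adjusted p = 0.1496). Flt1, which encodes VEGF receptor 1 and is also known from monocytes, did not pass in WT tnsIMs against moMs (0.25 ± 0.33) or matIMs (0.94 ± 0.34), and Icam2, also carried by leukocytes and platelets, did not pass against moMs (0.53 ± 0.20). In Ezr-KOm mice 19 of the 22 were higher than in moMs and 21 than in matIMs, and Calcrl, the receptor partner of Ramp2, was among those that did not pass against moMs (adjusted p = 0.0533).

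The 7 transcription factors of endothelium followed the same order. In WT mice 6 were higher in tnsIMs than in moMs and 7 than in matIMs, and in Ezr-KOm mice 6 and 6. Epas1, which encodes HIF-2α, was at 71.0 to 165 CPM in tnsIMs, 24.6 to 48.6 in moMs and 9.14 to 18.4 in matIMs, Foxf1, a factor of lung mesenchyme and capillaries, at 21.1 to 60.5, 7.003 to 12.7 and 1.94 to 4.85 CPM, and Sox7 at 13.2 to 29.5, 3.35 to 9.35 and 1.02 to 2.61 CPM. Tal1, which blood cell precursors also use, was the gene that did not pass against WT moMs (0.12 ± 0.65).

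Genes of vessel segments were grouped by the segment they mark. All 4 venous genes were higher in WT tnsIMs than in moMs and than in matIMs, among them Ephb4 at 7.81 to 17.4 CPM against 1.88 to 5.92 in moMs and 0.665 to 1.51 in matIMs. Ackr1, a chemokine-binding receptor of venules, was at 1.37 to 4.23 CPM in tnsIMs and at 0 to 0.293 in matIMs, and Slc6a2 and Nr2f2 were the other two. Of the general capillary genes, Plvap, a protein of endothelial diaphragms, was at 86.3 to 273 CPM in tnsIMs against 26.7 to 51.2 in moMs, and it was called higher in each comparison, as was Gpihbp1, the lipoprotein lipase anchor of capillaries. Aplnr, the apelin receptor, passed against matIMs and did not pass against moMs (0.76 ± 0.45 in WT).

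Genes called lower in tnsIMs came from the aerocyte and arterial lists. Ednrb, the endothelin B receptor and an aerocyte marker, was lower in tnsIMs (17.6 to 23.9 CPM) than in moMs (29.7 to 71.4 CPM) in WT (log2 fold change -1.39 ± 0.32, edgeR adjusted p = 0.00382) and in Ezr-KOm mice (-1.08 ± 0.31), and it was higher than in matIMs in both (1.57 ± 0.33 and 1.45 ± 0.32). Bmx, a kinase known from arterial endothelium and from myeloid cells, was also lower than in moMs, at 0.956 to 5.76 against 15.6 to 28.9 CPM (-2.86 ± 0.50 in WT), and it was higher than in matIMs in WT (1.91 ± 0.55) and did not pass in Ezr-KOm mice (1.45 ± 0.55). Car4, carbonic anhydrase 4, was at 50.5 to 98.0 CPM in tnsIMs and at 62.8 to 113 CPM in matIMs, and it did not pass against matIMs (-0.40 ± 0.25 in WT). Dll4, a Notch ligand of arteries, passed against WT moMs and did not against WT matIMs (0.63 ± 0.38), and in Ezr-KOm mice it was lower in tnsIMs than in matIMs (-1.26 ± 0.38, adjusted p = 0.0252). Of the aerocyte genes Tbx2 and Apln, and of the arterial genes Efnb2, Cxcl12, Gja4, Gja5 and Hey1, were higher in WT tnsIMs than in both other populations, while Fibin passed against matIMs alone. In Ezr-KOm mice 3 of the 7 arterial genes were higher than in moMs, against 6 in WT, and the difference between genotypes passed for 0 of them.

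**Figure D4:**
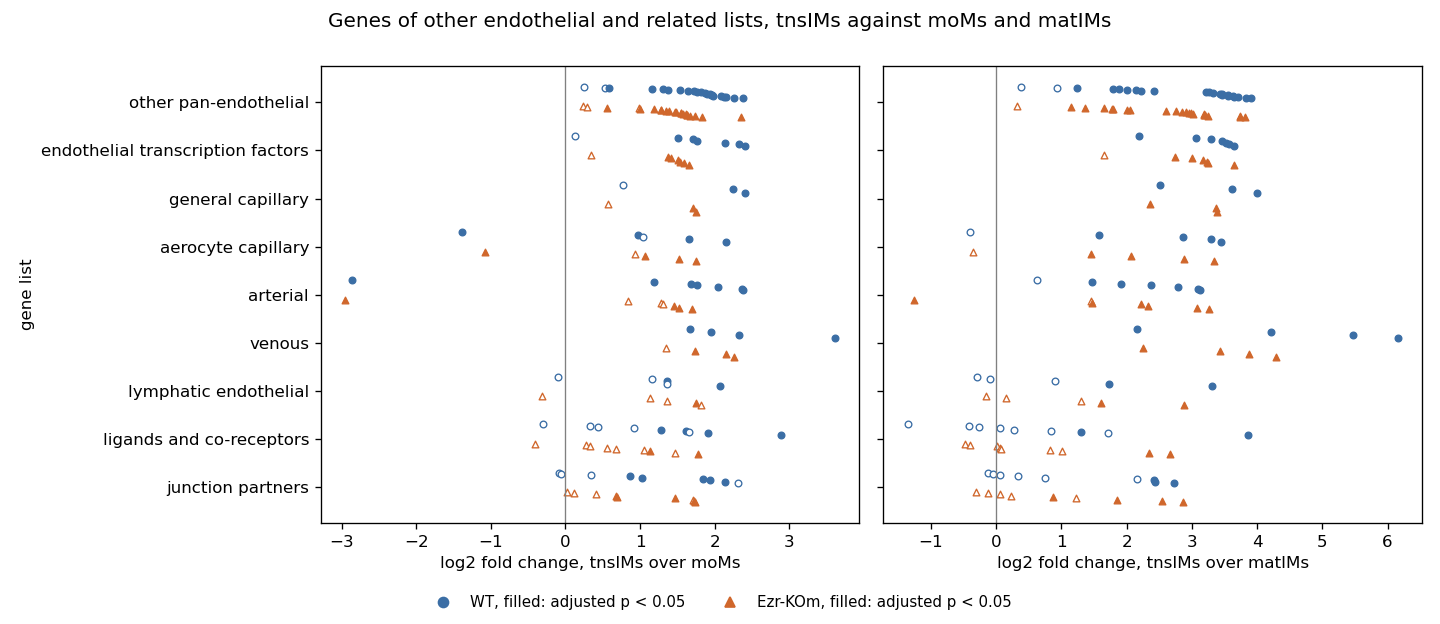
Log2 fold change of tnsIMs over moMs (left) and over matIMs (right) for each tested gene of 9 lists (y axis), with circles for WT and triangles for Ezr-KOm and filled symbols where the edgeR adjusted p was under 0.05. Most endothelial genes lie right of 0, and Bmx lies furthest left against moMs, at -2.86 in WT and -2.95 in Ezr-KOm mice.

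Of the 5 tested lymphatic genes, Lyve1, a hyaluronan receptor that some interstitial macrophages also carry, was higher in tnsIMs (32.4 to 62.2 CPM) than in moMs (8.15 to 20.2) and matIMs (4.14 to 8.05), and Flt4 was higher in WT as well. Pdpn, Ccl21a and Mmrn1 did not pass in WT, and Prox1, which defines lymphatic endothelium, was not tested for its low counts and was at 0 in 7 of the 18 libraries, 2 of them tnsIM libraries. The adhesion molecules of activated endothelium were all 4 higher in WT tnsIMs than in moMs (Icam1, Vcam1, Selp and Sele), and 1 of the 4 in Ezr-KOm mice, while Icam1, at a median of 867 CPM in tnsIMs, is also made by macrophages.

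The ligands and co-receptors of KDR, TIE1 and TEK and the partners of their junctions were looked at as well. Of 9 ligands and co-receptors 4 were higher in WT tnsIMs than in moMs (Angpt2, Vegfb, Vegfc and Adm) and 2 than in matIMs (Angpt2 and Vegfc). Vegfa, the main ligand of KDR, was at 174 to 402 CPM in tnsIMs, 117 to 321 in moMs and 83.5 to 227 in matIMs and did not pass in either comparison, nor did its co-receptors Nrp1 and Nrp2. Angpt2, the ligand stored by endothelium itself, was at 3.24 to 7.55 CPM in tnsIMs and at most at 2.31 CPM elsewhere. Of 9 junction partners 5 were higher in WT tnsIMs than in moMs (F11r, Jup, Tjp1, Jam2 and Ocln) and 3 than in matIMs (Tjp1, Jam2 and Ocln), while Ctnna1 and Ctnnb1, the catenins that link cadherins to actin in many cell types, did not pass in either. In the genotype comparisons 0 of these genes, 0 of the 48 others and 0 of the lymphatic or activation genes passed the adjusted threshold in edgeR. Some met the criterion of the study, as did 2.51%, 1.83% and 2.4% of all tested genes in moMs, tnsIMs and matIMs. Pdpn met it in all 3 populations and was lower in Ezr-KOm mice (log2 fold change -1.62, -1.84 and -2.23 in that order). Sele and Angpt2 in moMs, Adm in tnsIMs and Dll4 and Selp in matIMs met it and were higher. Gja4 in matIMs met it and was lower.

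The 15 genes most alike in pattern to the 10 were found by their correlation with the mean standardized log2 level of the 10 genes over 18 libraries, which share populations and mice. They were Esam (r = 0.990), Myzap, Jcad, Msrb3, Cdc42ep1, Tspan8, Clec14a, Tm4sf1, Tinagl1, Lhfp, Rapgef3, Nkd1, Tmem204, Tspan7 and Afap1l1 (r = 0.979). Of these Esam, Clec14a and Tspan7 were on the list of other pan-endothelial genes. After each group's mean was taken off, so that only differences between libraries of a group remained, the 15 correlations lay between 0.645 (Nkd1) and 0.885 (Esam). Of the 10 genes themselves Kdr was least like the mean of the 10, with r = 0.666 over 18 libraries and 0.368 within groups, and Egfl7 had 0.473 within groups. Each of the 10 is itself part of that mean, which raises its r beside that of other genes. A few genes of other cell types, picked by name and not by abundance, differed in how far they followed the 10. The correlations of the other genes on their lists are not given. Sftpc, a surfactant protein of alveolar type 2 cells, had r = 0.689 over the libraries and 0.073 within groups. The epithelial gene Sftpb had 0.680 and 0.281, Ager, also epithelial, 0.821 and -0.059, and the platelet gene Ppbp 0.036 and -0.160. The fibroblast gene Col1a2 had 0.913 and 0.377, and the pericyte gene Pdgfrb 0.954 and 0.654. Within groups Pdgfrb was thus above Kdr, Egfl7 and Nkd1.

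The summed markers of epithelium, fibroblasts and pericytes were also highest in tnsIMs, and their part in the result was not tested. The epithelial list of 14 genes summed to between 2187 and 4775 CPM in tnsIMs, against 196 to 343 in moMs and 426 to 726 in matIMs. It was led by the surfactant genes Sftpa1 (838 to 1986 CPM in tnsIMs) and Sftpc (572 to 1876 CPM). Fibroblast genes summed to 100.4 to 189 CPM in tnsIMs, 26.7 to 64.4 in moMs and 18.1 to 38.9 in matIMs, and were led by Col3a1 and Inmt, and pericyte and smooth muscle genes to 26.1 to 41.5, 14.9 to 22.9 and 6.37 to 9.35 CPM, and were led by Pdgfrb and Acta2. Not every gene of these lists followed its sum. In WT mice 8 of 13 tested epithelial genes, 6 of 8 fibroblast genes and 4 of 6 pericyte genes were higher in tnsIMs than in moMs in edgeR, and in Ezr-KOm mice 8, 6 and 2, and Acta2 had a median of 7.27 CPM in tnsIMs and 8.74 CPM in moMs. The endothelial sum was 3.27 times as high in tnsIMs as in moMs and 4.63 times as in matIMs, the fibroblast sum 2.89 and 4.29 times, the pericyte sum 2.00 and 4.36 times and the epithelial sum 12.7 and 5.97 times.

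Between the single tnsIM libraries the endothelial and epithelial sums did not move together. Ezr-KOm replicate 1, with the lowest endothelial sum of 289 CPM, had an epithelial sum of 3991 CPM, and Ezr-KOm replicate 3, with an endothelial sum of 492 CPM, had the lowest epithelial sum of 2187 CPM. The ratio of the epithelial to the endothelial sum ran from 4.45 to 13.8 in tnsIMs, from 1.41 to 2.48 in moMs and from 3.97 to 8.29 in matIMs.

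Blood cell and other macrophage markers were summed in the same way. The 9 platelet genes measured, led by Pf4 and Ppbp, summed to 26.7 to 74.7 CPM in tnsIMs, 29.1 to 81.1 in moMs and 52.3 to 97.3 in matIMs, and red cell genes, led by Hbb-bs and Hba-a1, summed to at most 35.7 CPM in any library. T and NK cell genes, led by Lck and Klrb1c, lay between 20.5 and 41.2 CPM in all libraries. Neutrophil genes, led by S100a9 and S100a8, summed to 147 to 273 CPM in tnsIMs, 57.1 to 98.1 in moMs and 101 to 294 in matIMs, and 5 of the 8 were higher in tnsIMs than in moMs and 0 than in matIMs in either genotype. Genes of dendritic cells (led by Ccr7 and Zbtb46) and of alveolar macrophages (Marco and Fabp4) had medians of 167 and 29.7 CPM in tnsIMs, of 62.9 and 9.71 CPM in moMs and of 2215 and 125 CPM in matIMs, so that both were higher in tnsIMs than in moMs, by 2.67 and 3.42 times in the mean, and highest in matIMs, where the endothelial sum was lowest. The monocyte and macrophage list, led by Cd74 and Lyz2 in tnsIMs, had medians of 31649, 37554 and 36885 CPM in moMs, tnsIMs and matIMs.

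**Figure D5:**
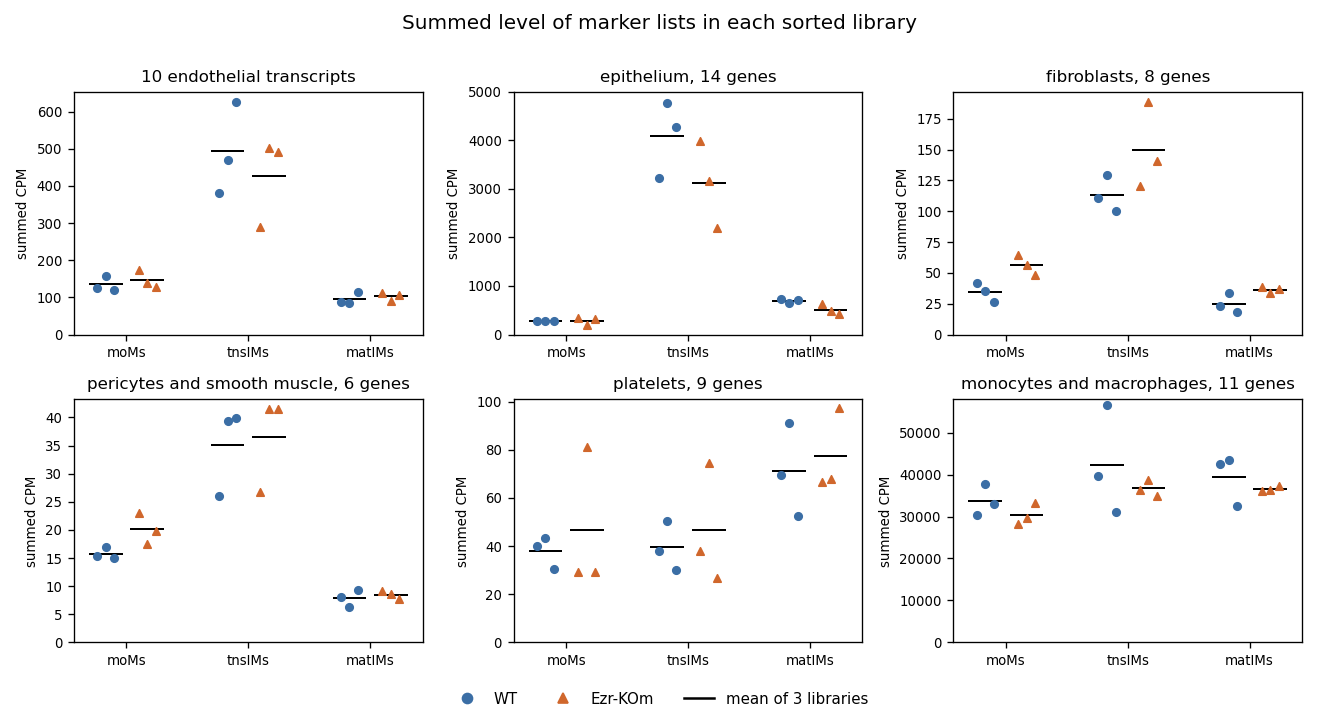
Summed level in CPM of 6 marker lists in 18 libraries by population, with circles for WT, triangles for Ezr-KOm and black lines for the mean of 3 libraries, each panel on its own linear axis from 0. Endothelial, epithelial, fibroblast and pericyte sums are highest in tnsIMs, at 289 to 627 CPM for the endothelial genes, while the platelet sum, 26.7 to 74.7 CPM in tnsIMs, is not.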

How the data were processed

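Bulk RNA-seq of 18 sorted populations was used, with 3 mice in each of 6 groups. Per the paper's methods, RNA with an integrity number of at least 8.0 was amplified with SMART-Seq v4, which reads full-length transcripts without strand, and sequenced as 150-base pairs. The authors aligned the reads with STAR 2.7.9a to GRCm39, counted them on Gencode M29 genes and deposited whole-number counts without normalization. The strand setting of the counting is not given in the sources used here.

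Column names gave the sample of all 18 columns. No 2 libraries were identical, and replicates differed by more than sampling noise. Genes were filtered with filterByExpr at a minimum of 10 counts, libraries were scaled by TMM, and 6 groups were fitted with edgeR 4.0.16 (glmQLFit, glmQLFTest, R 4.3.3), the scaling and test that the study used. The tests were two-sided, and the filter and the Benjamini-Hochberg adjustment over 15811 genes were chosen here. CPM are counts over the TMM-scaled library size. The fit was tested on simulated data. DESeq2 1.42.0 was an alternative, as were other scalings and filters, a replicate block and leaving out each library. Intervals are exact (Python 3.11.15, scipy 1.17.1) and figures were drawn with matplotlib 3.10.9.

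The genes and lists were chosen with earlier results of these data known. The genes of other cell types that are given with a correlation were picked by name. All 10 members were named, of the other endothelial lists the 3 genes most abundant in tnsIMs and those against their list, of the other cell types the 2 most abundant (1 marker list is not reported here), and the 15 genes most correlated with the members (log2 CPM, prior count 2). Libraries with the same replicate number in WT and Ezr-KOm mice deviated together from their group means (r from 0.102 to 0.316 over 9 pairs, against -0.238 to 0.0508 for different numbers), so the numbers were taken to pair them. Same-numbered libraries of different populations within a genotype did so too (r from 0.0905 to 0.397 over 18 pairs, against -0.295 to 0.0316). The main fit used no block. The pairing comes from these correlations and from no label.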

Additional observations from a re-analysis of the deposited data

How the results depend on the processing

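The counts of members called stayed at 0 in each genotype comparison and in the interactions under DESeq2, other scalings, other filters (9 members remain with at least 10 counts in every library, Emcn not among them), the replicate block and without each library. For comparisons of populations the block was genotype with replicate number. It treats same-numbered libraries of a genotype as coming from the same mouse, which no label states. That block gave 42 (against WT moMs), 45 (WT matIMs), 39 (Ezr-KOm moMs) and 44 (Ezr-KOm matIMs) other endothelial genes higher in tnsIMs. The block on replicate number, used between genotypes, changed no call of a member. Without 1 library those counts ranged from 34 to 41, 42 to 45, 24 to 39 and 41 to 44, the 24 without Ezr-KOm moM replicate 3. With at least 10 counts in every library 36 of the 48 were tested and 32, 32, 30 and 32 were higher. Without Pecam1 the summed level had means of 94.9 and 103 CPM in WT and Ezr-KOm moMs and of 56.8 and 62.9 CPM in matIMs, in place of 135, 147, 96.3 and 103.

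The sign of many uncalled log2 fold changes between genotypes turned when 1 library was left out. In tnsIMs the range was -0.40 to 0.15 for Cdh5, -0.31 to 0.13 for Pecam1, -0.27 to 0.26 for Kdr, -0.38 to 0.057 for Cldn5, -0.40 to 0.17 for Ramp2, -0.83 to 0.034 for Egfl7 and -0.84 to 0.16 for Vwf. WT replicate 3 turned Cdh5, Pecam1, Kdr, Ramp2 and Vwf, Ezr-KOm replicate 1 turned Pecam1, Cldn5 and Ramp2, WT replicate 2 turned Egfl7, Ezr-KOm replicate 2 turned Kdr and Ezr-KOm replicate 3 turned Ramp2. In moMs it was -0.19 to 0.45 for Cldn5, -0.11 to 0.31 for Tie1, -0.27 to 0.10 for Tek, -0.14 to 0.31 for Ramp2 and -0.14 to 0.28 for Egfl7, and in matIMs -0.10 to 0.41 for Cdh5, -0.15 to 0.12 for Pecam1 and -0.34 to 0.26 for Vwf. Depth limits Emcn most, whose lowest matIM library held 9 counts. The design has 3 mice per group and no sorted endothelial cells or untreated lungs, and the strand setting of the counts is not given in the sources used here.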
